A study of Mus musculus with 6 samples.

Results

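BK channels are potassium channels of very large single-channel conductance that open when the membrane is depolarised and the calcium inside the cell rises. Their pore is built from alpha subunits, all made by the single gene Kcnma1, and their calcium sensitivity and kinetics are tuned by beta subunits made by Kcnmb1, Kcnmb2 and Kcnmb4. In adrenal chromaffin cells these channels help to end the action potential, and in the glomus cells of the rat carotid body a BK current that low oxygen reduces has been described. The 4 genes were represented by all probe sets of the array annotated to one of them alone, which gave 4 of 18193 named genes and 10 of the 45037 probe sets tested. Kcnma1 had 5 probe sets, Kcnmb1 and Kcnmb2 had 2 each, and Kcnmb4 had 1. No probe set listing one of these genes together with another gene was found (0 probe sets).

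Carotid body was compared with adrenal medulla in untreated adult C57/BL6 mice, with 3 arrays per tissue. The carotid body is the arterial chemoreceptor organ, and the adrenal medulla is the catecholamine-secreting core of the adrenal gland. Each carotid body array held RNA of 18 carotid bodies and each adrenal medulla array RNA of 10 medullas, in both cases pooled from 10 mice. The series states that the same 3 cohorts of mice gave both tissues, so a cohort number pairs the arrays of the tissues. Whole organs were pooled, so fewer cells of a type and less RNA per cell cannot be told apart in any value below. Pearson correlations over all probe sets were 0.978 to 0.984 among carotid body arrays, 0.991 to 0.995 among adrenal medulla arrays and 0.938 to 0.951 between the tissues. The labels do not give the sex of the mice. Xist, a transcript of female cells, had log2 levels of 8.84 to 10.96 in carotid body, against 4.45 to 5.60 in adrenal medulla. This contrast stands beside the statement that the same cohorts gave both tissues. A difference in sex between the pools, if present, cannot be told apart from tissue. The part of this in the results was not tested. All levels are log2 intensities as deposited, differences are carotid body minus adrenal medulla, and "called" means that limma gave an adjusted p below 0.05 together with a change of 2-fold or more.

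Carotid body had less Kcnma1 RNA by 3 of the 5 Kcnma1 probe sets, 3.00-fold to 4.74-fold. Kcnmb1 read 2.11-fold higher in carotid body by 1 of 2 probe sets, both dimmer than the median probe set. That Kcnmb1 call was lost under some alternatives given below. None of the 3 probe sets of Kcnmb2 and Kcnmb4 was called. Of the 10 probe sets, 3 were called lower in carotid body, against 4.58% of all probe sets tested, and 1 was called higher, against 5.95%. In either direction the background was 10.5%. The 3 probe sets called lower all belong to Kcnma1, so they are repeated readings of 1 gene. Of all probe sets called, 56.5% were higher in carotid body, and 46.0% after median centring of the arrays, which put the median difference over all probe sets at -0.11 in place of 0.01 (log2).

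The promoters of Kcnma1 and Kcnmb1, the subunit genes called in opposite directions, are shown. A link between promoter sequence and direction was not tested. The sequences run from 250 bases before to 50 bases after the gene start, from RefSeq on GRCm38.p6, and all 4 genes had a promoter there. Kcnma1 lies at chr14:24004156-24004455 on the minus strand and Kcnmb1 at chr11:33962763-33963062 on the plus strand. Capitals mark every match, on either strand, to the GC box (GGGCGG or its complement CCGCCC), the motif of Sp1-type factors.
Kcnma1: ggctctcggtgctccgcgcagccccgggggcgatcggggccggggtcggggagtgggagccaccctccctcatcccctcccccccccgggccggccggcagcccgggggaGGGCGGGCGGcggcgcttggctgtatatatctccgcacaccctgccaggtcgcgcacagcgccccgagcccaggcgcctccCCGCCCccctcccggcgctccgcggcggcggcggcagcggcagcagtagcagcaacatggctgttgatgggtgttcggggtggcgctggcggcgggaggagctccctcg
Kcnmb1: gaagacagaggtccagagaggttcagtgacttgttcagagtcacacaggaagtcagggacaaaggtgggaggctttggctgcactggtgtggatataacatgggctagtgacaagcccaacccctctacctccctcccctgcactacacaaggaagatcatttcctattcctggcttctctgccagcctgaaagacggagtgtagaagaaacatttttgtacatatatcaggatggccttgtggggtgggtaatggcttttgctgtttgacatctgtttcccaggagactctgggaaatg
The Kcnma1 promoter held 36 CpG dinucleotides and 3 GC boxes, a pair of which share bases, whereas the Kcnmb1 promoter held 1 CpG and 0 GC boxes. Over all 32851 promoters the median was 7 CpG, and 35.7% held a GC box. Kcnmb4, which was not called, resembled Kcnma1, with 48 CpG and 4 GC boxes. Kcnmb2, also not called, had 9 CpG and 0 GC boxes. The same windows were searched on both strands for the CArG box of serum response factor, the TATA box (TATAAA) and the core of hypoxia response elements (ACGTG or GCGTG). Neither printed window matched any of these, which 1.6%, 13.6% and 43.8% of all promoters hold. The Kcnmb2 window matched the hypoxia response core at 3 positions. These matches describe the letters of the windows and show no binding.

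Kcnma1 encodes the pore-forming alpha subunit. Its brightest probe set, 1428948_at, read 7.43, 6.91 and 6.86 in carotid body cohorts 1, 2 and 3, against 9.27, 9.15 and 9.19 in the adrenal medulla of the same cohorts. The tissues did not overlap, and the adrenal arrays were the tighter group, with means of 7.07 ± 0.31 in carotid body, against 9.20 ± 0.06 in adrenal medulla (SD, n = 3 each). The difference was -2.14 ± 0.17 (log2, SE; limma adjusted p = 0.000198), a level 4.4-fold lower in carotid body, in the same direction in all 3 cohorts. Across all 45037 probe sets, 2.22% had a difference of larger size.

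A second Kcnma1 probe set, 1425987_a_at, whose suffix marks one that matches several transcripts of the gene, read 6.47, 6.11 and 6.15 in carotid body, against 7.85, 7.72 and 7.91 in adrenal medulla. Again the groups stood apart, and the difference was -1.59 ± 0.14 (log2, SE; adjusted p = 0.000282). The third, 1424848_at, read 5.99, 5.78 and 5.06 in carotid body, against 7.58, 8.17 and 7.82 in adrenal medulla. Its arrays were more scattered, carotid body cohort 3 being the lowest, and its difference of -2.25 ± 0.26 (log2, SE; adjusted p = 0.000998) was larger in size than that of the brightest probe set by less than its error. All 3 probe sets were called in every alternative run, with differences between -2.57 and -1.5 when taken one by one.

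The other Kcnma1 probe sets did not show the difference. Probe set 1440728_at read 6.58, 6.24 and 5.25 in carotid body, against 5.42, 5.41 and 5.81 in adrenal medulla. Its tissues overlapped, because carotid body cohort 3 lay below every adrenal array, and the difference was 0.48 ± 0.32 (log2, SE; 95% interval -0.27 to 1.22; adjusted p = 0.349). Cohorts 1 and 2 gave 1.16 and 0.83, and cohort 3 gave -0.56. Without carotid body cohort 3 the difference was 0.86 (adjusted p = 0.0124), still under 2-fold, and without both arrays of cohort 3 it was 0.99 (adjusted p = 0.0148). Probe set 1457018_at was the dimmest of the family. It read 4.33, 3.60 and 3.59 in carotid body, against 3.59, 3.56 and 3.56 in adrenal medulla, so that a single array, carotid body cohort 1, stood above the others, and the difference was 0.27 ± 0.21 (adjusted p = 0.412) with that array and 0.02 without it.

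**Figure D1:**
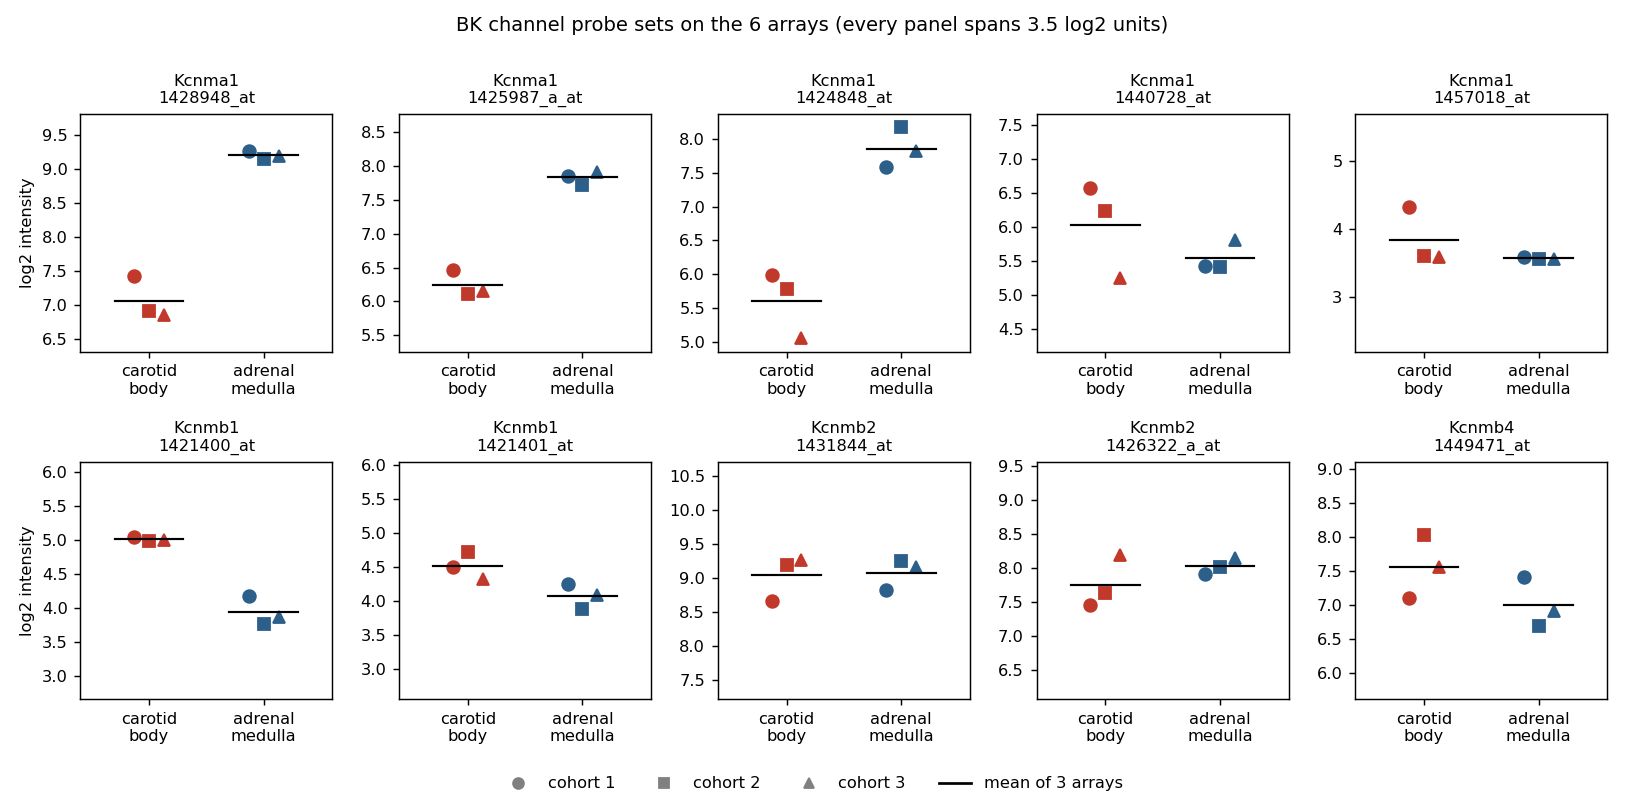
Log2 intensity (vertical axes, 3.5 log2 units in every panel) of the 10 BK channel probe sets in carotid body (red, left) and adrenal medulla (blue, right). Marker shapes are the 3 cohorts and bars the mean of 3 arrays. The first 3 Kcnma1 panels and the first Kcnmb1 panel show tissues that do not overlap and whose means differ by at least 2-fold. The Kcnmb2 and Kcnmb4 panels show overlapping tissues.

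Whether Kcnma1 probe sets differed from one another in their tissue difference was tested on the per-array difference between the brightest probe set of a gene and each of its others, for all 16752 such pairs, of which 9.87% were called. The brightest minus 1440728_at averaged 1.04 in carotid body, against 3.65 in adrenal medulla, so that the tissue differences were unequal by -2.61 ± 0.26 (log2, SE; adjusted p = 0.000543). Against 1457018_at the averages were 3.23 in carotid body, against 5.63 in adrenal medulla, unequal by -2.41 ± 0.16 (adjusted p = 9.33e-05). These 2 of the 4 Kcnma1 pairs were called. Against 1424848_at the tissue differences were unequal by 0.11 ± 0.24 (95% interval -0.45 to 0.66; adjusted p = 0.794), and against 1425987_a_at by -0.55 ± 0.16 (adjusted p = 0.0473), under 2-fold. Probe set 1457018_at lay below the lower quartile of the array on all arrays but carotid body cohort 1, so it could hardly have read lower in carotid body, and its inequality mostly restates the difference of the brightest probe set. The disagreement within Kcnma1 therefore rests on 1440728_at, and only with limits. In adrenal medulla 1440728_at read 5.42, 5.41 and 5.81, not far above the array medians of 5.18, 5.16 and 5.18. No detection calls were used, so it may be near background there too. Its inequality also carries the difference of the brightest probe set, while its own difference of 0.48 was not called. Which exons or transcripts each Kcnma1 probe set reads was not analysed here. With all 5 averaged, Kcnma1 differed by -1.05 ± 0.19 (log2, SE; adjusted p = 0.00522).

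Carotid body cohort 1 gave the highest carotid body value in all 5 Kcnma1 probe sets. That array also had the highest carotid body readings of adrenal cortex markers, given below, and of Pnmt, the adrenaline-making enzyme of the medulla, which was picked out after its values were seen. Pnmt read 11.13, 7.65 and 8.08 in carotid body, against 13.17, 13.84 and 13.70 in adrenal medulla. On carotid body cohort 1 the 3' probe set for the control gene Gapdh exceeded the 5' one by 1.45, a gap that widens as RNA breaks down, against 1.04 and 0.59 in carotid body cohorts 2 and 3 and 0.13 to 0.61 in adrenal medulla. In carotid body every Kcnma1 probe set but 1425987_a_at, called or not, followed the same order of cohorts as this Gapdh gap. The summed cortex markers had that order too (20691, 282 and 213), so it cannot tell RNA quality and adrenal RNA apart. It is an order of 3 arrays in repeated readings of 1 gene. Without carotid body cohort 1 the 3 called probe sets differed by -2.32, -1.70 and -2.44, each larger in size than with it. The part of RNA quality and of adrenal RNA in the Kcnma1 readings was not tested.

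Kcnmb1 encodes beta1, the beta subunit of smooth muscle, which raises the channel's response to calcium. Its brighter probe set, 1421400_at, read 5.04, 4.98 and 5.0 in carotid body, against 4.17, 3.76 and 3.87 in adrenal medulla. The carotid body arrays were nearly identical (5.01 ± 0.03, SD, n = 3) and all lay above the adrenal ones (3.93 ± 0.21, SD, n = 3). The difference was 1.08 ± 0.13 (log2, SE; adjusted p = 0.0014), higher in carotid body in 3 of 3 cohorts. It lay close to the 2-fold threshold, and it fell under it at 0.97 after quantile normalization, at 0.96 with median-centred arrays and at 0.99 without adrenal medulla cohort 2, with adjusted p of 0.00186, 0.00221 and 0.00923. The call of at least 2-fold therefore rests on these choices, while the adjusted p stayed at or under 0.0393 in the 14 alternatives that kept the probe set.

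The second Kcnmb1 probe set, 1421401_at, which derives from the same sequence record, read 4.50, 4.73 and 4.33 in carotid body, against 4.25, 3.89 and 4.09 in adrenal medulla. The tissues again did not overlap, but the difference of 0.44 ± 0.15 (log2, SE; 95% interval 0.09 to 0.79; adjusted p = 0.074) was not called. Between the Kcnmb1 probe sets the tissue differences were unequal by 0.63 ± 0.17 (adjusted p = 0.039), under 2-fold and not called. Both Kcnmb1 probe sets and the Kcnma1 probe set 1457018_at were dimmer on average than the median probe set (mean level 5.28). Over the family, the tissues did not overlap for 5 of 10 probe sets, against 40.2% of all probe sets tested.

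Kcnmb2 encodes beta2, whose N terminus plugs the pore and gives the inactivating BK current known from rat chromaffin cells. Its brighter probe set, 1431844_at, read 8.66, 9.18 and 9.27 in carotid body, against 8.82, 9.25 and 9.16 in adrenal medulla. The tissues overlapped almost fully, cohort 1 being the lowest in both, and the difference was -0.04 ± 0.19 (log2, SE; adjusted p = 0.921), with a 95% interval of -0.49 to 0.42 that lies within 2-fold either way. The other, 1426322_a_at, read 7.45, 7.63 and 8.19 in carotid body, against 7.91, 8.02 and 8.14 in adrenal medulla. Here too the groups overlapped, and the difference was -0.27 ± 0.20 (95% interval -0.73 to 0.19; adjusted p = 0.386). Without carotid body cohort 3, which was the highest array of this probe set, it was -0.49 (adjusted p = 0.0352), still under 2-fold. The Kcnmb2 probe sets did not differ detectably from each other in their tissue difference (0.23 ± 0.19; adjusted p = 0.432).

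Kcnmb4 encodes beta4, the beta subunit typical of neurons, which slows the channel and makes it resistant to scorpion toxins that block other BK channels. Its single probe set, 1449471_at, read 7.11, 8.03 and 7.56 in carotid body, against 7.41, 6.69 and 6.91 in adrenal medulla. The cohorts disagreed: the difference was -0.30 in cohort 1, 1.34 in cohort 2 and 0.65 in cohort 3. Over all arrays it was 0.56 ± 0.27 (log2, SE; 95% interval -0.06 to 1.18; adjusted p = 0.183) and was not called. Without both arrays of cohort 1 it was 0.99 (adjusted p = 0.0242), and without both of cohort 2 it was 0.17, so its size rests on single cohorts. Kcnmb4os1 and Kcnmb4os2, noncoding transcripts named for the opposite strand of this gene, differed by -0.05 and -0.17 (adjusted p = 0.823 and 0.375).

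**Figure D2:**
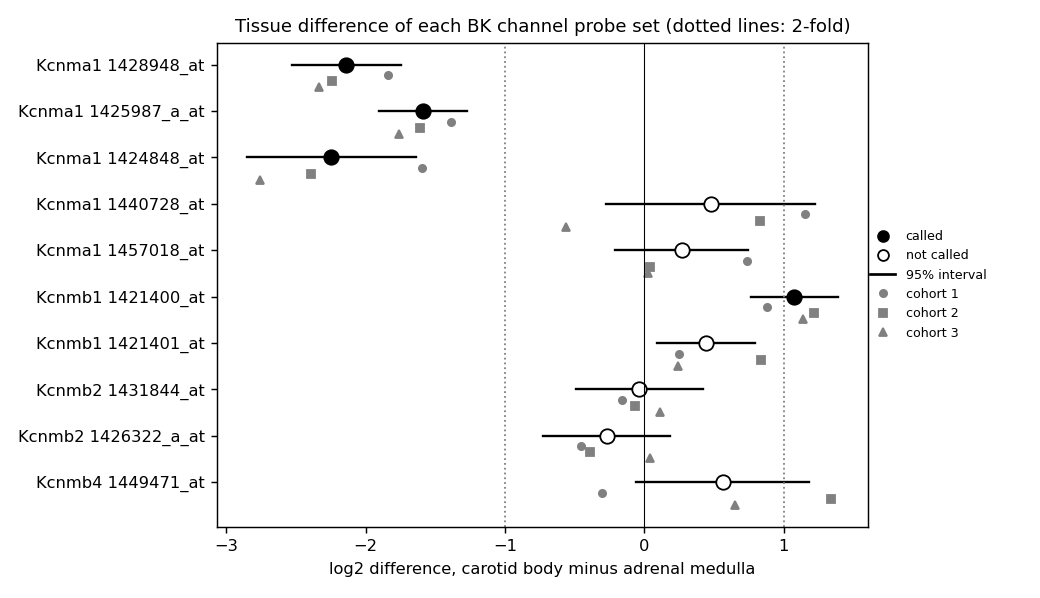
Log2 difference, carotid body minus adrenal medulla (horizontal axis), of each BK channel probe set. Circles are the limma estimates (filled where called), bars the 95% intervals, small grey markers the 3 cohorts, and dotted lines 2-fold. The 3 filled Kcnma1 estimates lie between -2.25 and -1.59 while the other Kcnma1 estimates lie right of 0, and the Kcnmb2 intervals include 0.

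The balance of beta to alpha subunit RNA was higher in value in carotid body by the brightest probe sets, in a test too small to call it. The level of a beta probe set minus that of Kcnma1 1428948_at was taken on each array and compared between tissues, which asks only whether the genes moved apart. For Kcnmb1 this quantity was -2.06 ± 0.29 in carotid body, against -5.27 ± 0.15 in adrenal medulla (SD, n = 3 each), a shift of 3.21 toward the beta subunit in carotid body. For Kcnmb2 it was 1.97 ± 0.64 in carotid body, against -0.13 ± 0.28 in adrenal medulla, a shift of 2.10, and for Kcnmb4 0.50 ± 0.74 in carotid body, against -2.20 ± 0.31 in adrenal medulla, a shift of 2.70. All 3 shifts had an exact permutation p of 0.1 (two-sided, 20 arrangements of 3 against 3 arrays; 0.1 after adjustment over the 3), the smallest that this test of unpaired arrangements can give, so no shift could pass 0.05 in it. The shifts share Kcnma1 and are not independent of its tissue difference. The Kcnmb1 shift also rests on dim adrenal readings of Kcnmb1 (4.17, 3.76 and 3.87). The size of all 3 shifts is given for the brightest probe sets only. The size of the shifts also differed with the Kcnma1 probe set. Against 1440728_at they were 0.60, -0.51 and 0.09 for Kcnmb1, Kcnmb2 and Kcnmb4 (exact permutation p = 0.3, 0.5 and 1), and against 1457018_at 0.81, -0.31 and 0.29. The tissue differences of these beta probe sets alone were 1.08, -0.04 and 0.56. The shifts against 1457018_at lie below them by the difference of that dim probe set, 0.27, which came from carotid body cohort 1 alone.

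**Figure D3:**
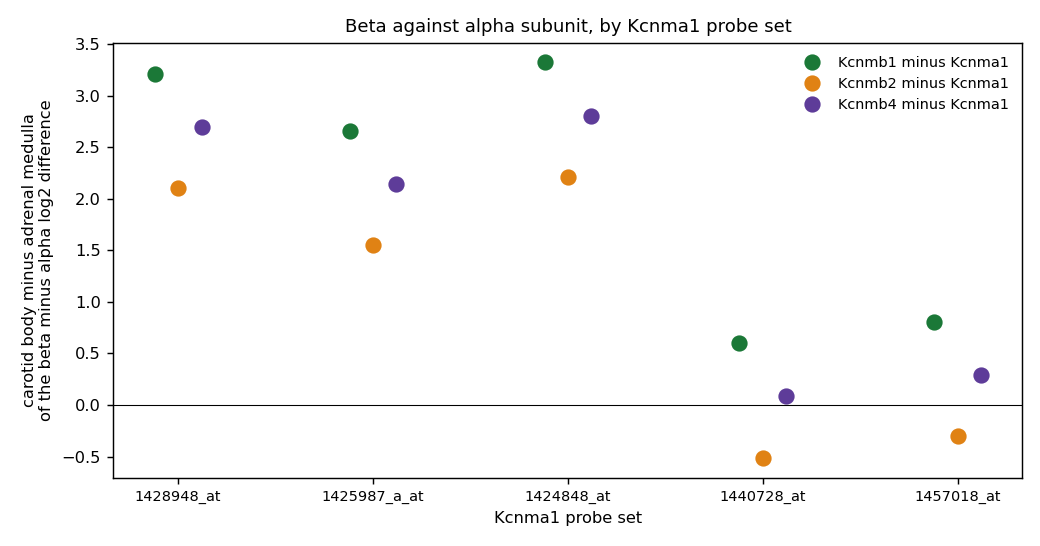
Shift of the beta minus alpha log2 difference between tissues, carotid body minus adrenal medulla (vertical axis), for 3 beta subunit genes, against each of the 5 Kcnma1 probe sets (horizontal axis). All shifts are at least 1.55 against the 3 probe sets that were called and at most 0.81 against the other 2.

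Among other genes that work with the channel, calcium sources were lower in carotid body where they were called. BK channels are opened by calcium that enters through voltage-gated channels or leaves internal stores. Of 12 measured members of the list of these channels, 4 were lower in carotid body, 0 were higher and 8 were not called, with a median difference of -0.29, against -0.04 over all 18193 genes, of which 6.08% were called lower and 5.91% higher. At an unadjusted limma p under 0.05, 7 members passed. The share of all genes that did so was not computed, so this count has no background beside it. Of the 7, Cacna1g and Itpr3, named after their values were seen, were higher in carotid body in value and the others lower. Cacna1g and Itpr3 differed by 0.72 and 0.45 (adjusted p = 0.0192 and 0.0891). Ryr3, a ryanodine receptor that releases stored calcium, differed by -1.53 ± 0.23 (log2, SE; adjusted p = 0.00302) and its relative Ryr2 by -1.01 ± 0.17 (adjusted p = 0.00522). Cacna1c, the pore of an L-type calcium channel, read 6.06, 5.50 and 5.98 in carotid body, against 7.85, 7.14 and 7.03 in adrenal medulla, a difference of -1.49 ± 0.25 (adjusted p = 0.00467). Cacna1h, the pore of a low-voltage-activated T-type channel, differed by -1.39 ± 0.20 (adjusted p = 0.00277). The other probe sets of Cacna1h, Ryr2 and Ryr3 ranged up to 0.12, -0.0019 and 0.06. Without both arrays of cohort 2 the count lower was 0, with adjusted p of 0.0625 to 0.0743 for these 4 genes, and Ryr2 also fell under 2-fold without carotid body cohort 1 (-0.91), without adrenal medulla cohort 2 (-0.86) and after quantile normalization (-0.98).

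Relatives of the BK channel went both ways. The list held channels gated by calcium or sodium and, as a family member only, Kcnu1. Of its 7 measured channels, 2 were higher in carotid body, 2 lower and 3 not called, with a median of -0.25. Over all genes 5.91% were called higher and 6.08% lower. Kcnn2, a small-conductance calcium-activated channel, read 6.14, 5.04 and 5.03 in carotid body, against 9.26, 7.91 and 7.61 in adrenal medulla, and differed by -2.86 ± 0.47 (log2, SE; adjusted p = 0.00442). In both tissues cohort 1 was the highest. Kcnu1, a sperm channel of the same Slo family as Kcnma1, differed by -1.10 ± 0.16 (adjusted p = 0.00248). Kcnt2, a sodium-activated channel of that family, was instead higher in carotid body, by 2.44 ± 0.21 (adjusted p = 0.000271), as did Kcnn4, the intermediate-conductance calcium-activated channel, by 1.74 ± 0.18 (adjusted p = 0.000533). Kcnt2 read 8.27, 7.89 and 8.03 in carotid body, against 5.19, 5.76 and 5.93 in adrenal medulla, with no overlap. The 2 probe sets of Kcnn4 gave 0.63 and 1.74. Without both arrays of cohort 2, Kcnn2 and Kcnu1 had adjusted p of 0.0729 and 0.063 and the count lower was 0, and without those of cohort 3 Kcnu1 was just under 2-fold (-0.99) and the count lower was 1.

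None of the gamma-type partners was called. The leucine-rich-repeat gamma subunits Lrrc26 and Lrrc38, which let BK channels open at more negative voltages, differed by 0.02 and 0.05 (adjusted p = 0.963 and 0.818). Of the 3 measured members of that list 0 were called (limma), and 0 passed an unadjusted p of 0.05. Kcnmb3 and Lrrc55 were not analysed here. Among 14 proteins reported to act on BK channels, 1 was higher in carotid body, 2 lower and 11 not called, with a median of -0.23. Over all genes 5.91% were called higher and 6.08% lower, and the 1 call higher is near that share. Cav1, caveolin of membrane pits, differed by 3.94 ± 0.25 (log2, SE; adjusted p = 8.17e-05), Hmox1, the inducible haem oxygenase, by -3.79 ± 0.18 (adjusted p = 2.55e-05) and Prkg2, a cyclic GMP-dependent kinase, by -2.16 ± 0.20 (adjusted p = 0.000377). Hmox1 read 5.93, 6.19 and 6.41 in carotid body, against 9.69, 10.21 and 9.99 in adrenal medulla, again with no overlap. Prkg1, the other cyclic GMP-dependent kinase of the list, named after its values were seen, was instead higher in value. It differed by 0.94 ± 0.14 (log2, SE; adjusted p = 0.00295), under 2-fold and not called. The count higher in this list was 2 without carotid body cohort 1, without adrenal medulla cohort 3 and after quantile normalization. Hmox2, the constitutive haem oxygenase, named here after its values were seen because it has been proposed as an oxygen-dependent partner of the channel, differed by -0.02 ± 0.12 (adjusted p = 0.931).

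**Figure D4:**
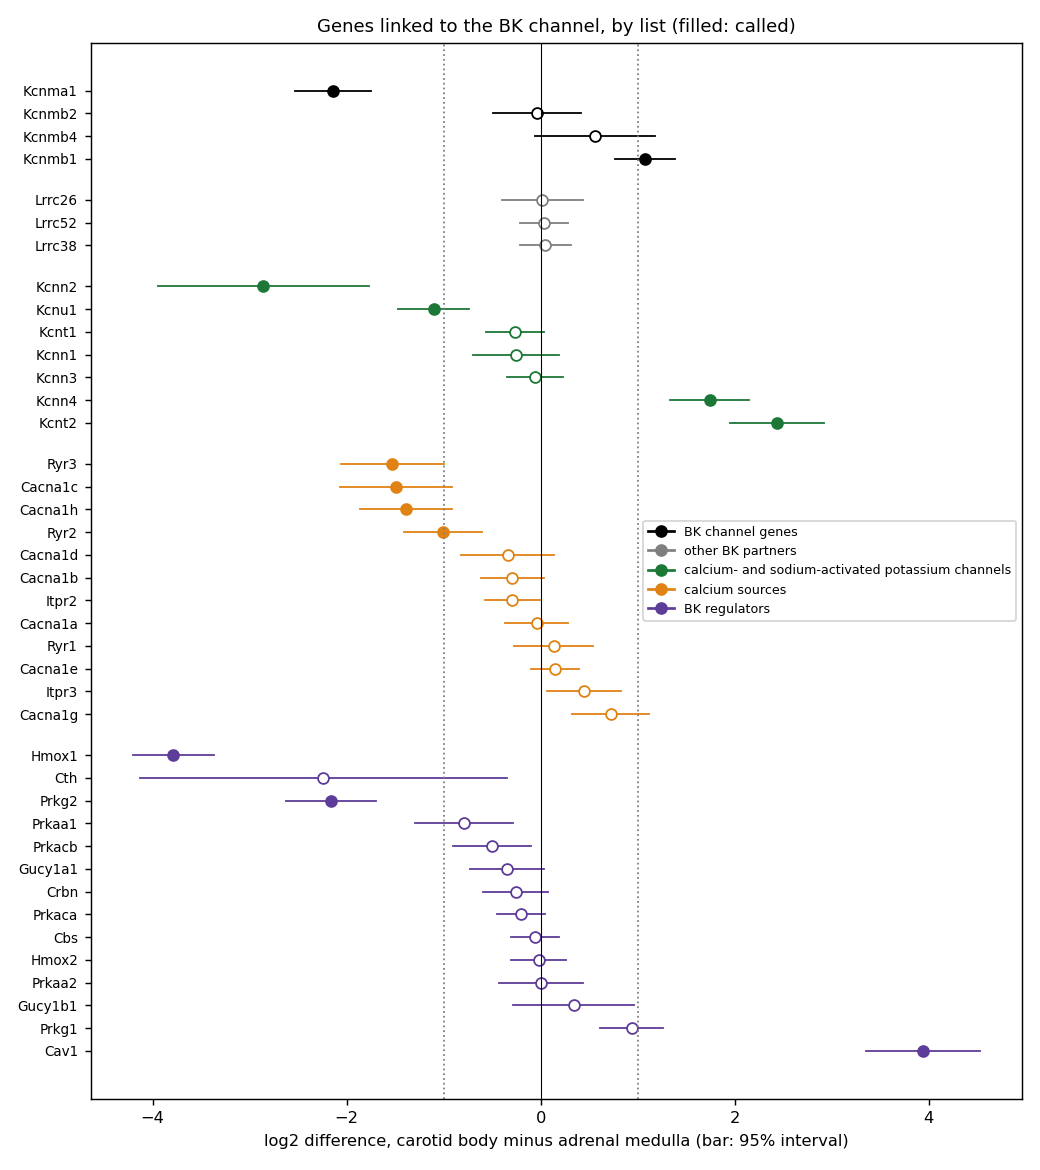
Log2 difference, carotid body minus adrenal medulla (horizontal axis), with 95% intervals, for the brightest probe set of each measured gene in 5 lists (colours), filled where called and with dotted lines at 2-fold. Calcium sources have 4 filled points, all left of 0, and related potassium channels have 2 on each side.

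Several lists of cell type markers also differed between the tissues. Over all genes 5.91% were called higher in carotid body and 6.08% lower. Smooth muscle and pericyte markers, the cells in which Kcnmb1 is best known, were higher in carotid body for 9 of 10 genes and lower for 0. Their summed linear intensity was 20260 to 23821 in carotid body, against 3332 to 3915 in adrenal medulla, with Acta2, smooth muscle actin, at a difference of 3.84 (adjusted p = 2.13e-05). Des, the marker not called and named after its values were seen, went the other way. It differed by -0.47 (limma adjusted p = 0.0716), with the same direction in all 3 cohorts and no overlap. Fibroblast markers were higher for 7 of 7 and Schwann and satellite glia markers for 4 of 5. Endothelial markers were higher for 2 of 6 and lower for 0, and neuron markers were higher for 1 of 7 and lower for 1, with 3 higher without carotid body cohort 3 or both arrays of that cohort. Of 10 measured chromaffin and glomus cell markers, which include the catecholamine enzymes, 0 were higher and 7 were lower in carotid body, with 4 lower without both arrays of cohort 2. Their summed intensity was 39419 to 45753 in carotid body, against 85755 to 112759 in adrenal medulla. The brightest of them, the granule proteins Chgb and Chga and the enzyme Ddc, differed by -1.18, -2.08 and 0.81. Ddc (limma adjusted p = 0.0207) was under 2-fold and not called. Hand2 was also higher in value, by 0.23 (adjusted p = 0.538). No marker had a value of 0 in any array, since log2 intensities have a floor above it. The part of these cell types in the Kcnma1 and Kcnmb1 differences was not tested.

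Markers of the steroid-producing adrenal cortex were read on arrays of both tissues. The summed intensity of 8 cortex markers was 20691 in carotid body cohort 1, 282 and 213 in carotid body cohorts 2 and 3, and 52829 to 69301 in adrenal medulla. Of these markers 7 were lower in carotid body, against 6.08% of all genes, and 1 to 8 with arrays or cohorts left out. The lowest counts were 1 without both arrays of cohort 2, 2 without those of cohort 3 and 3 without adrenal medulla cohort 2, and the count was 4 without carotid body cohort 2, adrenal medulla cohort 1 or adrenal medulla cohort 3. As given above, the called Kcnma1 differences were larger in size without carotid body cohort 1, but cortex RNA was in every adrenal array and its part in them was not tested.

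**Figure D5:**
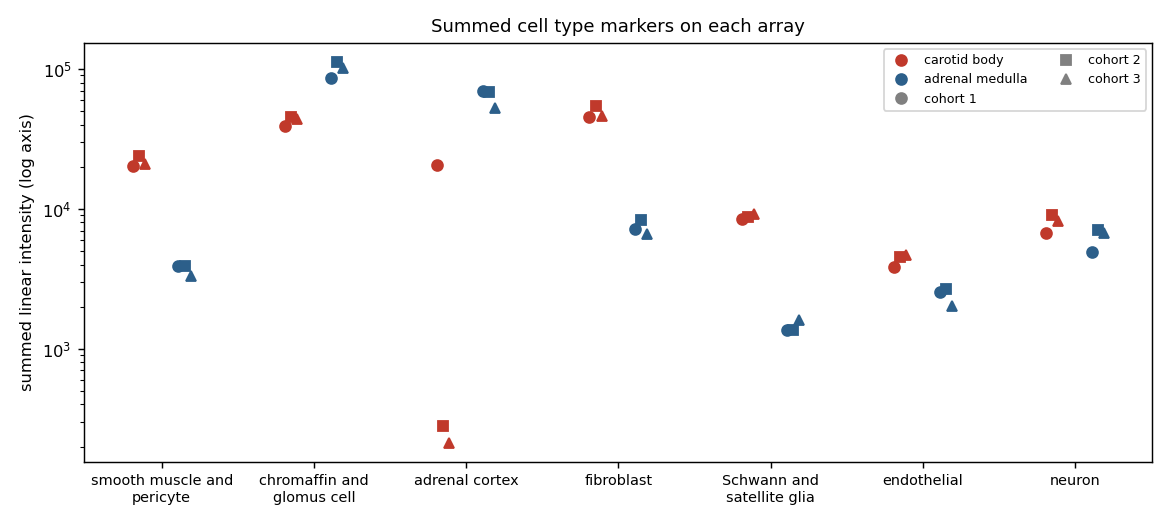
Summed linear intensity of 7 marker lists (vertical log axis) on each carotid body array (red, left) and adrenal medulla array (blue, right), with the 3 cohorts as marker shapes. Smooth muscle, fibroblast and glia sums are higher in carotid body, and chromaffin and cortex sums in adrenal medulla, and carotid body cohort 1 alone among its tissue reaches 20691 for cortex markers.

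The genes whose 6 array values were most like those of a subunit gene were sought by the root mean square difference of values centred on each probe set's mean, over genes at or above the median level. Nearest to Kcnma1 were Gnat2, the cone transducin subunit, Gamt, an enzyme of creatine synthesis, and Cacnb2, a calcium channel beta subunit, at 0.104, 0.142 and 0.154 log2 units. Gnat2 read 5.23, 4.68 and 4.59 in carotid body, against 7.20, 6.89 and 6.78 in adrenal medulla. Nearest to Kcnmb1 were Capn6, Antxr2 and Alox5ap, at 0.0459 to 0.0649 log2 units, and nearest to Kcnmb4 were Prrg3, Megf6 and Dram1, at 0.163 to 0.168. Pearson correlations over the 6 arrays were 0.931 to 0.999, but these points share the tissue grouping, so a like profile is a description of these arrays. Kcnmb2 varied by less than 1 log2 unit over the arrays and was not searched.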

How the data were processed

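The samples of mouse carotid body and adrenal medulla, 3 pools each, were measured on Affymetrix 3' expression arrays. The deposited values are log2 intensities, 1 per probe set and array, made by the authors with Expression Console of Affymetrix according to the labels, that is per the submitters' processing notes. For its algorithm, version and normalization the entry is "not given in the sources used here", and the log2 scale was read from the values. No detection calls were used, so dim readings may come from unexpressed genes, and the number of arrays limits the precision.

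Of 45101 probe sets, 64 controls were left out. Gene symbols were those of the 2016 platform annotation, which named 1 gene for 34945 probe sets, several for 932 and none for 9160, and gene IDs of 34741 were found in RefSeq (GRCm38.p6). Each gene in the lists was represented by its brightest probe set. Linear models were fitted in R 4.3.3 with limma 3.58.1 (eBayes moderation, no block, two-sided, Benjamini-Hochberg over all probe sets or all pairs of probe sets) after tests on simulated data. The members and lists were chosen with earlier results of these data known. All probe sets of the 4 subunit genes are named, and from each list the called genes, at most 4, or the 2 brightest. The series states that numbers mark shared cohorts of animals, which gives the pairing; same-numbered arrays had correlations of deviations from the tissue means of 0.22, 0.08 and 0.16, and unlike-numbered ones of -0.21 to 0.10.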

Additional observations from a re-analysis of the deposited data

How the results depend on the processing

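Alternatives were the cohort as a replicate block, quantile normalization, median-centred arrays, variances with an intensity trend and robust moderation, weights per array, dropping probe sets under the median level, and leaving out each array or cohort. The 3 lower Kcnma1 probe sets were called in all of them. With the replicate block, 3 BK probe sets were lower and 1 higher in carotid body, and no call of a BK probe set changed. The 1 call higher, Kcnmb1, became 0 under quantile normalization, under median centring and without the dimmer probe sets, which removes Kcnmb1 itself. With single arrays or cohorts left out it was 0 to 1 (0 without adrenal medulla cohort 2), all probe sets called were 1626 to 3025 higher and 952 to 2499 lower, and pairs of probe sets called were 309 to 2191 (1653 with all), these totals being lowest without both arrays of cohort 2. Without the dimmer probe sets 534 pairs were called, 1 of them of Kcnma1. With the mean of all probe sets of the gene, Kcnmb1 differed by 0.76. Values near 0 changed sign: Kcnmb2 1431844_at was 0.062 after quantile normalization and -0.16 to 0.15 with arrays left out; the inequality between Kcnma1 1428948_at and 1424848_at was -0.074 to 0.29; Lrrc38 and Lrrc26 were -0.072 and -0.089 after quantile normalization, -0.068 and -0.10 with median-centred arrays, and -0.0028 to 0.10 and -0.12 to 0.17 with arrays left out. Against Kcnma1 1440728_at and 1457018_at, chosen after seeing the data, the shift of Kcnmb2 was -0.51 and -0.31, while it was 2.10 against the brightest. Cortex markers lower in carotid body were 2 with the intensity trend. The list and named-gene alternatives were also added after seeing the data. Where not stated, the cause was not tested.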

Other observations

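Cth, which makes hydrogen sulphide, a gas reported to act on BK channels, was singled out after its values were seen. It read 7.22, 3.48 and 4.64 in carotid body, against 7.46, 7.41 and 7.19 in adrenal medulla, so that carotid body cohort 1, the array with high cortex and Pnmt readings, lay at the adrenal level while the others were far below it. Its difference of -2.24 ± 0.81 (log2, SE; limma adjusted p = 0.088) was not called. Star, a cortex gene, had the same one high carotid body array, at 12.06, against 3.85 and 3.81 in the other carotid body arrays and 13.52 to 13.95 in adrenal medulla.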
